A study of Mus musculus with 3 samples.

Results

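Ribosomal protein genes encode the protein part of the cytosolic ribosome, and 51 of the 18193 mouse genes named on the arrays by probe sets (groups of short probes that each read a transcript) with a single gene symbol were followed here. They were taken by name, as symbols that begin with Rpl or Rps followed by a digit, or with Rplp or Rpsa, leaving out the Rps6k kinases. These 51 genes are read by 107 of the 45101 probe sets. The cells were B16, an established mouse melanoma line grown in medium with serum, given 1 µg/ml doxorubicin, an anthracycline that binds DNA and traps topoisomerase II on it. RNA was taken at 0 h, 2 h and 4 h, and each time point was read on 1 Affymetrix Mouse430_2 array. Without replicates no test was made and the small number of arrays limits precision, and since no control culture was followed alongside, drug, time and handling cannot be told apart. Every array shares the same cell line and growth medium, and the labels name no strain, genotype or vehicle.

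The ribosome has a small subunit, which decodes the mRNA, and a large subunit, which forms peptide bonds and carries a flexible stalk of acidic P proteins. Most mRNAs of its proteins begin with a tract of pyrimidines, the 5′ TOP element, through which mTORC1 and LARP1 control their translation and stability. Several ribosomal proteins that are not built into ribosomes bind the ubiquitin ligase MDM2, with the 5S ribonucleoprotein of Rpl5 and Rpl11 best known, and this frees p53 when ribosome production is disturbed. Anthracyclines are known to disturb that production.

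By role, 43 of the 51 genes encode proteins of the subunits, out of 77 such genes that the name rule could have met. They comprise 21 of 31 for the small subunit, 20 of 43 for the large subunit and 2 of 3 for the stalk. Another 6 are paralogs (Rpl3l, Rpl7l1, Rpl22l1, Rpl39l, Rps4l and Rps27l) and 1 is a pseudogene, Rps15a-ps6. Rps19bp1 fits the name rule but encodes a partner of Rps19, not a ribosomal protein. The name cytosolic ribosomal protein therefore holds for 43 of the genes in the strict sense. A further 110 probe sets carry several symbols, at least 1 of them of this kind, and were left unnamed. They include genes of this family whose probes also match pseudogenes.

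Runs of pyrimidines, the feature these mRNAs are known for, were found near the annotated start of part of these genes. For 44 of the 51 genes a promoter window was matched by symbol in the RefSeq table of assembly GRCm38.p6, and where a gene had several starts the most upstream was used. Windows of 60 bases are shown 5′ to 3′, from 40 bases before the annotated start through its first 20 bases. They are those of each gene at least 1.5-fold different at 2 h or 4 h that had one, of Rps27l (the paralog of Rps27), of Rps10 (whose probe sets disagree) and of Rpl12 (dim and lower). The longest run of pyrimidines (C or T) within 20 bases on either side of the start is in capitals.

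Rpl14, chr9:120571477-120571536, plus strand: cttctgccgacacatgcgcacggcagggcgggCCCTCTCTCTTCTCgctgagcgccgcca
Rpl22l1, chr3:28805468-28805527, plus strand: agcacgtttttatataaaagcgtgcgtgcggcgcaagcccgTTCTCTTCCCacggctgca
Rpl27a, chr7:109519155-109519214, plus strand: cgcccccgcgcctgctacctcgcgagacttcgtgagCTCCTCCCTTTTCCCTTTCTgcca
Rpl37, chr15:5116573-5116632, plus strand: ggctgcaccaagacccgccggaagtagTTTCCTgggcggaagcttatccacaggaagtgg
Rps6, chr4:86857348-86857407, minus strand: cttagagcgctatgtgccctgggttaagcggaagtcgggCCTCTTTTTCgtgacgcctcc
Rps19, chr7:24884552-24884611, plus strand: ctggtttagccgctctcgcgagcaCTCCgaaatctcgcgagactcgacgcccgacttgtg
Rps27, chr3:90213629-90213688, minus strand: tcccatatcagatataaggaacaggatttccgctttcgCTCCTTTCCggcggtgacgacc
Rps27l, chr9:66946046-66946105, plus strand: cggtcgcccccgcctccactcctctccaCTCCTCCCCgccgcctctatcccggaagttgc
Rps10, chr17:27635225-27635284, minus strand: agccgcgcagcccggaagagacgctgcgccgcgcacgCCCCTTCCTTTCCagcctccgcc
Rpl12, chr2:32961672-32961731, plus strand: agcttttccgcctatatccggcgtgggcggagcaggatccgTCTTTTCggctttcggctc

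In these windows the run reaches 20 bases in Rpl27a, 14 in Rpl14 and 13 in Rps10, and only 4 in Rps19. In Rpl37, Rps19 and Rps27l it lies wholly before the annotated start, and so outside the mRNA as annotated. The counts below include such runs. Over the 38 subunit genes with a window, 17 (44.7%) had a run of at least 8 pyrimidines on the transcript strand within 20 bases of the start. The same held for 15.7% of the 7937 genes that passed the expression filter and had a window. A run of at least 6 was found in 65.8% and 35.1%. The first transcribed base was a pyrimidine in 52.6% of the subunit genes and in 24.4% of the filtered genes. Annotated starts can lie some bases away from those used in B16 cells.

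**Figure D1:**
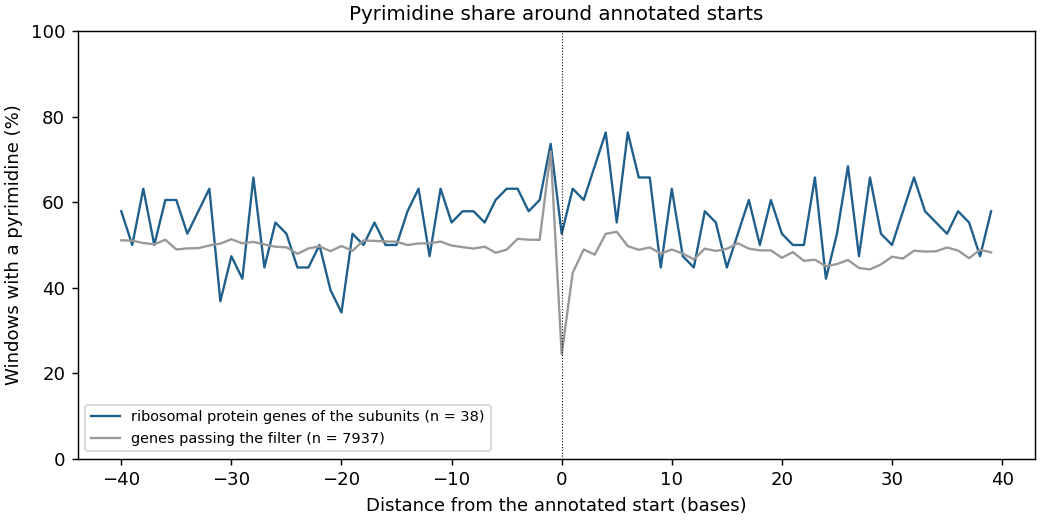
Share of windows with a pyrimidine (C or T, in percent) at each distance from the annotated start, for 38 ribosomal protein genes of the subunits and 7937 genes passing the filter. The filtered genes drop to 24.4% at the first transcribed base, where the ribosomal protein genes stand at 52.6%, and over the first 10 transcribed bases the mean shares are 46.6% and 62.9%.

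In the whole window, from 250 bases before the start through its first 50, CCGGAAG on either strand, a core of sites for ETS factors such as GABP, was present in 19 of 38 subunit genes, against 19.7% of the filtered genes. AAGATGG on either strand, found in YY1 sites, was present in 18.4% against 7.4%. TATAAA on the transcript strand was found in 10.5% against 4.4%. These matches describe letters and show no binding. Subunit genes with a run of at least 8 pyrimidines (17 passing the filter) had median log2 ratios of 0.24 at 2 h and 0.21 at 4 h against 0 h. Those without one (19 genes) had medians of 0.28 and 0.28.

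Before the values, the arrays themselves were set side by side. The description field of the labels speaks of bone marrow-derived macrophages and of an "ET" treatment, against B16 and doxorubicin elsewhere. Among 15 pigment cell markers, 14, 12 and 13 had a signal of at least 200 at 0, 2 and 4 h, with summed signals of 216480, 233171 and 232666. Those sums are carried by pigment genes such as Tyrp1 (42568, 44083 and 47128), while the lineage regulators Sox10 (11710, 2640 and 892) and Mitf (6576, 2031 and 739), and also Mc1r and Rab38, were over 2-fold lower at 4 h. Of the 15 markers 12 passed the expression filter. Tyr (221, 170 and 142), Oca2 (208, 149 and 207) and Kit (149, 24.5 and 84.5) did not. Of 17 macrophage markers, 5 reached 200 on each array, though not the same ones, with sums of 4533, 5563 and 5898. Csf1r, Cd68 and Lyz2 did so on every array. Cd68, a lysosomal protein, had the highest of these signals, at 1884, 3044 and 3699 (log2 ratios of 0.69 and 0.97). The leukocyte marker Ptprc had signals of 66.8, 49.5 and 55.7 and Itgam 19.8, 63.0 and 38.8. Fibroblast markers reached 200 in 4 of 9 genes on each array, lymphocyte markers in 2, 2 and 1 of 6, and endothelial markers in 1 of 7. In RNA from a whole culture, fewer cells of a type and less RNA per cell cannot be told apart. The part of these markers in the results was not tested. The 3′ to 5′ signal ratio, a sign of RNA quality, was 0.826, 0.824 and 0.803 for Gapdh and 1.07, 1.10 and 1.18 for β-actin. Each array was washed and stained in another fluidics module (3, 4 and 1 at 0, 2 and 4 h), so module and time cannot be told apart.

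On each array these transcripts were among the strongest. Signals were put on a scale on which the 2% trimmed mean of an array is 500, and signals under 100 were set to 100 before ratios were taken. A probe set passed the filter if its mean log2 signal reached that of 200, and a gene was read by its passing probe set of highest mean. Of the 51 genes 45 passed, among 9723 genes in all. In 34 of them the signal was at least 20000 on every array, which was reached by 118 genes in all, so that ribosomal protein genes made up 28.8% of those. Within the 34 the 0 h signal ran from 23193 (Rps9, which lies at the mRNA entry side of the small subunit) to 73368 (Rpl41, the smallest protein of the ribosome). Probe sets differ in affinity, so these signals do not rank the mRNAs.

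The 107 probe sets held 6.11% of the summed signal of all probe sets at 0 h, 6.93% at 2 h and 6.79% at 4 h. With the 110 probe sets of several symbols the shares were 13.1%, 14.7% and 14.5%. The share was thus higher on both treated arrays, and highest at 2 h. The bright end of the arrays grew as well. Over all probe sets, those with a signal of at least 40000 numbered 112, 151 and 157 at 0, 2 and 4 h. No such share was computed for other bright genes, so the rise is not shown to be particular to this family.

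Among the 6 genes that did not pass, 3 are paralogs with signals near or under the floor of 100. Rpl3l, a muscle paralog of Rpl3, had signals of 30.1, 164 and 100.3 at 0, 2 and 4 h. Rpl39l, a germ cell paralog of Rpl39, had 108, 46.5 and 61.3, and Rps4l had 4.15, 6.54 and 4.43. The pseudogene Rps15a-ps6 was under 51 on each array. Rps16 encodes a small subunit protein needed by every ribosome, yet its only probe set with 1 symbol stayed between 10.0 and 43.1. A signal under the floor therefore describes the probe set and not the gene. Rpl12, a protein at the base of the stalk, is read by 1 dim probe set with signals of 592, 104 and 99.5, high at 0 h only.

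**Figure D2:**
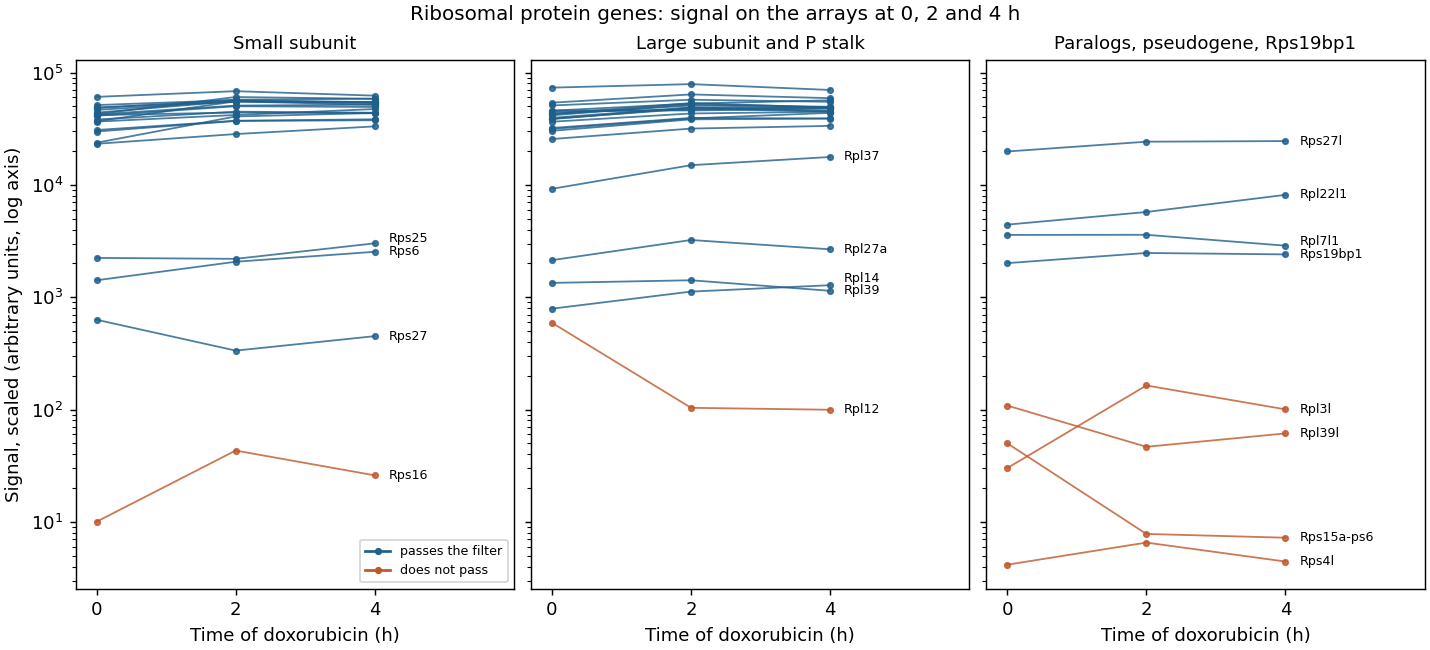
Scaled signal (arbitrary units, log axis) of each of the 51 ribosomal protein genes at 0, 2 and 4 h, 1 array each, by role; blue lines pass the filter and orange lines do not. Most subunit genes lie in a narrow band above 20000, while Rps25, Rps6, Rps27, Rpl27a, Rpl14 and Rpl39 lie under 5000 on every array and Rpl12 is high at 0 h only.

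At 2 h most ribosomal protein genes had a slightly higher signal than at 0 h. The log2 ratio was above 0 in 43 of the 45 genes, against 49.0% of all 9723 genes. Its median was 0.28, which is 1.22-fold, with a range of 0.17 to 0.33 between its quartiles, while the median of all genes was -0.01. Bright genes in general did the same: of the 808 genes with a mean signal of at least 5000, 88.2% were above 0, and the 771 among them outside this family had a median of 0.26. At least 1.5-fold higher were 4 genes (Rpl27a, Rpl37, Rps14 and Rps19) against 6.62% of all genes and 5.32% of the bright ones, a count that was 0 with spike-in scaling and 1 with quantile normalization. At least 1.5-fold lower was 1 gene, Rps27, against 14.9% of all genes and 0.248% of the bright ones. No member reached 2-fold either way, against 1.41% higher and 5.69% lower among all genes.

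At 4 h the median was again 0.28 (1.22-fold), with quartiles at 0.16 and 0.37, though it was below 0, at -0.04, when spike-in probes set the scale. It was -0.07 over all genes and 0.38 over the 771 other bright genes. A log2 ratio above 0 was found in 41 of 45 genes, against 46.1% of all genes and 87.6% of bright genes. At least 1.5-fold higher were 5 genes (Rpl14, Rpl22l1, Rpl37, Rps6 and Rps19) against 11.5% of all genes and 20.9% of bright genes. With spike-in scaling only Rpl37 (0.62) kept this call, with Rpl22l1 and Rps19 at 0.56, Rps6 at 0.52 and Rpl14 at 0.37, while Rps27 (-0.81) and Rpl7l1 (-0.64) were then 1.5-fold lower. With quantile normalization Rpl37 (0.57) and Rps19 (0.54) lost it. Below 0 were Rpl39, Rpl41, Rpl7l1 and Rps27, against 53.9% of all genes. None was 1.5-fold lower, against 25.5% and 1.11%. None was 2-fold different, against 2.32% of all genes higher and 14.4% lower, or 0.99% of bright genes higher. The spread over passing probe sets of the same gene, pooled over 20 of these genes, had an SD of 0.47 at 2 h and 0.36 at 4 h. It ran from 0.01 in Rps29 to 1.52 in Rpl37a at 2 h and from 0.02 in Rps29 to 0.91 in Rps10 at 4 h, and it is an error of single genes, not of the family's median. Both comparisons share the 0 h array.

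From 2 h to 4 h the ratios were centred near 0. The median log2 ratio was -0.01, with 21 genes above 0 and 24 below. Of all genes 43.8% were above 0 and 56.2% below, and of bright genes 68.6% were above. The range was from -0.32 to 0.51, so no gene was 1.5-fold different, against 5.34% of all genes higher and 15.8% lower, and 1.36% and 0.743% of the bright ones. At 2-fold, 5.41% of all genes were lower. The other bright genes had a median of 0.10. The array with the highest signal was that of 2 h for 24 genes (53.3%) and that of 4 h for 20 (44.4%). Among all genes these shares were 25.3% and 32.7%, and among all bright genes 26.9% and 67.3%. Most bright genes were dimmer than this family, with 668 of the 808 at a mean signal of 5000 to 20000. At a mean signal of at least 40000, the median log2 ratio for 4 h against 2 h was -0.06 in 18 other genes. It was -0.05 in the family's 38 probe sets of that range.

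The direction of these small ratios depended on how the arrays were put on one scale. With equal medians of passing probe sets, the family's median was 0.44 at 2 h and 0.59 at 4 h, and 23 genes were at least 1.5-fold higher at 4 h, beside 28.8% of all genes. With quantile normalization it was 0.03 and 0.02, and when the 18 spike-in probe sets of the hybridization set the scale it was 0.07 and -0.04, with 15 genes above 0 and 30 below at 4 h. The median of all genes moved too, to 0.24 at 4 h with equal medians and to -0.39 with the spike-ins. In those 3 scalings the other bright genes stood at 0.68, 0.01 and 0.06 at 4 h.

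**Figure D3:**
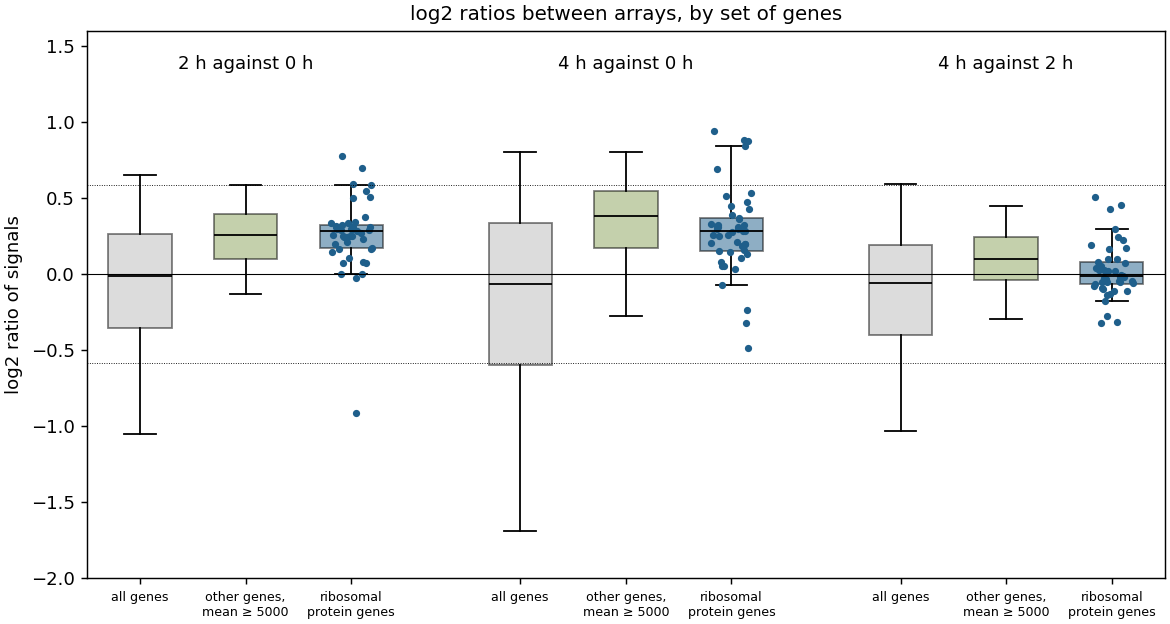
log2 ratios of signal between arrays for all 9723 genes, for the 771 other genes with a mean signal of at least 5000, and for the 45 ribosomal protein genes (points). Boxes run between the quartiles with the median as a line, whiskers run from the 5th to the 95th percentile, and dotted lines mark 1.5-fold; the family's medians of 0.28 at 2 h and 4 h lie beside 0.26 and 0.38 for other bright genes, and the median at 4 h is -0.04 with spike-in scaling.

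Small and large subunit genes had like medians. The 20 passing genes of the small subunit had medians of 0.26 at 2 h and 0.29 at 4 h, and the 19 of the large subunit 0.30 and 0.28. Of the stalk, Rplp0, its scaffold, had signals of 41589, 52101 and 49482, and Rplp2, an acidic P protein, 38754, 47738 and 44899. Both were highest at 2 h, with log2 ratios of 0.33 and 0.30 there and 0.25 and 0.21 at 4 h.

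Rps19, a small subunit protein that is mutated in Diamond-Blackfan anaemia, had signals of 23701, 40614 and 43612. Its log2 ratios of 0.78 and 0.88 were the highest of any member at 2 h and among the 3 highest at 4 h, from a single probe set. Rpl37, a zinc-binding protein of the large subunit, had signals of 9215, 14964 and 17704, higher at each later time, with ratios of 0.70 and 0.94. Its only probe set, 1438291_x_at, is of a kind with probes that also match other transcripts. Rps6, the small subunit protein phosphorylated by S6 kinases, was read by 1 passing probe set with signals of 1414, 2067 and 2535, and ratios of 0.55 and 0.84. Rpl14, a protein of the large subunit, had 790, 1121 and 1278, and ratios of 0.51 and 0.69. Each of these 4 genes had its lowest signal at 0 h and its highest at 4 h, and each rests on 1 passing probe set.

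Higher at 2 h than at 4 h were Rps14 and Rpl27a. Rps14, a protein of the small subunit's platform whose loss is tied to the 5q- syndrome, had signals of 36800, 55373 and 53377 on its brighter probe set, or log2 ratios of 0.59 ± 0.28 and 0.54 ± 0.39 (SD over its 2 probe sets). Its other probe set had 45287, 51581 and 44958, with ratios of 0.19 and -0.01. The 1.5-fold call at 2 h therefore rests on 1 of its 2 probe sets. The mean ratio over both was 0.26 at 4 h. Here and below, the value before ± is that of the brightest probe set. The SD is taken about the mean over passing probe sets, which can differ from that value. Rpl27a, of the large subunit, had 2135, 3228 and 2667 and ratios of 0.60 and 0.32.

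At the lower end stood Rps27, a zinc-finger protein of the small subunit. Its 1 probe set with a single symbol was dim, at 630, 334 and 450, lowest at 2 h, with ratios of -0.91 and -0.49. Rpl39, a small protein lining the exit tunnel, had 1340, 1414 and 1139 (0.08 and -0.23). Rpl41 had 73368, 78833 and 69916 (0.10 and -0.07). Rps2, with 60702, 68205 and 62235, had ratios of 0.17 and 0.04, and Rpl8, next to the peptidyl transferase centre, 45880, 45922 and 47592 (0.00 and 0.05). Of the genes below 0 at 4 h, Rpl41 is thus bright, while Rps27, Rpl39 and Rpl7l1 are not. The strongest 4, Rpl41, Rps2, Rpl38 and Rps29, included Rpl38, a regulator of Hox mRNA translation, with 53866, 63831 and 59096, and Rps29, with 48117, 57261 and 58484. Rps25, needed by several viral internal ribosome entry sites, had 2237, 2194 and 3015, higher at 4 h only (-0.03 and 0.43).

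Most of the remaining subunit genes stayed within the same narrow range. These are Rpl4, Rpl6, Rpl7a, Rpl10a, Rpl13a, Rpl19, Rpl27, Rpl35, Rps3a1, Rps4x, Rps18, Rps28 and Rpsa, with log2 ratios from 0.07 (Rpl4) to 0.50 (Rps18) at 2 h and from 0.06 (Rpsa) to 0.45 (Rps18) at 4 h. They were named after their values were seen, as were Rps9, Rps24 and Rpl37a, also of the subunits. Rps9 had ratios of 0.29 and 0.51 on its brightest probe set, and of 0.69 and 0.80 on its other passing one. Rpl37a had 0.31 and 0.48 on its brightest probe set, and Rps24 0.20 and 0.37. Rps18, a protein of the small subunit's head, had 42660, 60514 and 58321 on its brightest probe set, and the next had 49536, 52839 and 53277, with ratios of 0.09 and 0.11. Rpsa, which is also known as the laminin receptor, had 41771, 44030 and 43421, nearly level.

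Paralogs differed from one another. Rpl22l1, which takes the place of Rpl22 in some ribosomes, had signals of 4422, 5730 and 8145, higher at each later time. Its ratios were 0.37 at 2 h and 0.88 (1.84-fold) at 4 h, and its 0.51 for 4 h against 2 h was the highest of the family. Rpl22 itself had 30248, 38287 and 38895 on its brightest probe set (0.34 ± 0.35 and 0.36 ± 0.40, SD over 3 probe sets). Rpl7l1, a paralog of Rpl7 that acts in large subunit assembly, had 3583, 3592 and 2873, lowest at 4 h, with ratios of 0.00 ± 0.26 and -0.32 ± 0.13 (SD over 3 probe sets). Its partner by sequence, Rpl7, had 36464, 43184 and 44796 (0.24 ± 0.08 and 0.30 ± 0.11, SD over 3 probe sets). Rps27l, a close copy of Rps27 and a known p53 target, had 19809, 24215 and 24533, with ratios of 0.29 ± 0.10 and 0.31 ± 0.07 (SD over 3 probe sets), near the family's median. Its ratio at 4 h was -0.08 with quantile normalization and -0.01 with spike-in scaling. Near-identical copies can share probes, so the split of signal between Rps27 and Rps27l is uncertain. The non-ribosomal Rps19bp1 had 2009, 2475 and 2403 (0.30 and 0.26).

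The genes of proteins reported to bind MDM2 had medians close to those of the whole family. Of 15 such genes listed, 11 passed the filter, with medians of 0.29 at 2 h and 0.32 at 4 h. Rpl11 of the 5S ribonucleoprotein had 25575, 31682 and 33478 (0.31 and 0.39, the latter 0.02 with quantile normalization). Rps7 had 43914, 55745 and 54099 on its brightest probe set (0.34 ± 0.32 and 0.30 ± 0.40, SD over 2 probe sets), and Rps3, which also acts in DNA repair, 46420, 55270 and 51721 (0.25 ± 0.43 and 0.16 ± 0.32, SD over 2 probe sets). At 4 h Rps3 stood at -0.30 with suffixed probe sets left out, -0.17 with spike-in scaling and -0.02 with quantile normalization. Rps15 stood at 0.27 ± 0.24 and 0.32 ± 0.13 (SD over 2 probe sets), Rps20 at 0.31 ± 0.43 and 0.33 ± 0.16 (SD over 3 probe sets) and Rps26 at 0.23 and 0.20. Rps14, Rps25, Rps27, Rps27l and Rpl37 are given above. Hosts of intronic snoRNAs, 7 of which passed, had medians of 0.25 and 0.16, all 7 above 0 at 4 h (0.04 to 0.33), as were 41 of the 45 members and 87.6% of bright genes.

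The ratios of passing probe sets differed between ranges of signal, with no single order. Among passing probe sets of the family with a mean signal of at least 40000 (38 probe sets), the median log2 ratio was 0.25 at 2 h and 0.20 at 4 h. From 20000 to 40000 (25 probe sets) it was 0.40 and 0.42, and from 5000 to 20000 (8 probe sets) 0.59 and 0.77. Under 5000 (16 probe sets) it was 0.01 and 0.01. For other genes the medians in the same ranges were 0.19 and 0.14 (18 genes), 0.24 and 0.31 (87 genes), 0.26 and 0.40 (666 genes), and -0.05 and -0.13 (8907 genes). The family is counted here by every passing probe set, and other genes by their brightest alone, so the units differ. From 5000 to 20000, only the probe sets of Rpl22l1 and Rpl37 are the brightest of their gene. The others are dimmer probe sets of bright genes, among them 1439374_x_at of Rps10 (2.22 at 4 h). The probe sets share the same arrays, and the mean signal shares its values with the ratio.

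Among bright probe sets, those of one gene were compared, for which the transcript is the same in name. Of 18 members with at least 2 probe sets at a mean of 5000 or more, the brightest had a smaller ratio than the dimmest in 15 at 2 h and in 15 at 4 h (83.3%). For 258 other genes of this kind the shares were 55.4% and 62.0%. Those genes share only the floor of 5000 with the family and were not matched to it in signal above that. The median difference, dimmest minus brightest, was 0.17 and 0.20 in the family and 0.03 and 0.06 in the others. In Rps7, where the gap was wider than that median, the brightest probe set had a ratio of 0.30 at 4 h. The other, with signals of 21396, 37195 and 39062, had 0.87. Whether the scanner or probes neared their upper limit was not tested, and the highest signal on any array was 79329.

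**Figure D4:**
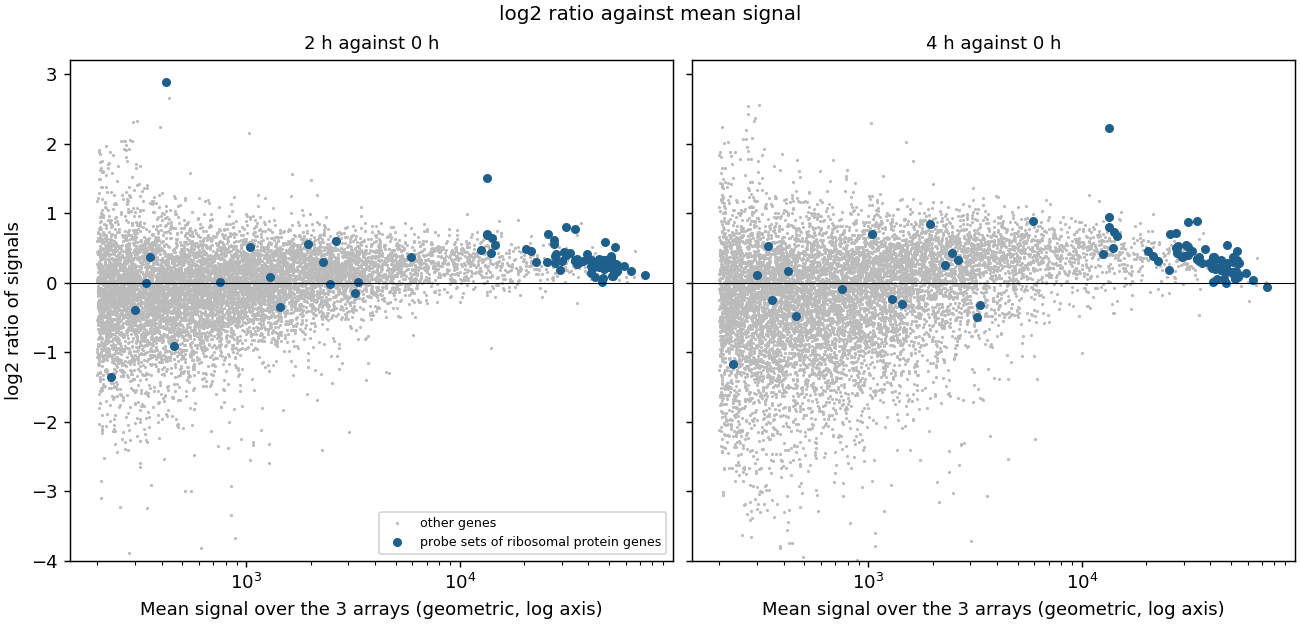
log2 ratio against the mean signal over the 3 arrays (geometric mean, log axis) for passing probe sets of ribosomal protein genes (blue) and for the other genes (grey), at 2 h and 4 h against 0 h. Blue points lie mostly above 20000, where their ratios narrow from medians of 0.40 and 0.42 to 0.25 and 0.20 above 40000; grey points below the range of the axis are not drawn.

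In a few genes the probe sets disagreed far more than this. Rps10, a small subunit protein at the mRNA entry, is read by 6 probe sets, of which 5 passed. Of these, 4 had ratios from 0.15 to 0.28 at 4 h, whereas probe set 1439374_x_at had signals of 5661, 16113 and 26407, a ratio of 1.51 at 2 h and 2.22 (4.67-fold) at 4 h. With the mean over probe sets Rps10 stood at 0.60 at 4 h in place of 0.16. Names ending in _x_at mark probe sets with probes that also match other transcripts, and they made up 43.7% of the family's 87 passing probe sets, against 7.39% of all passing ones.

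Rpl41 had ratios of -0.07 and 0.01 at 4 h on its bright probe sets and of -1.18 on 1454639_x_at, with signals of 415, 162 and 184. Rpl37a, a zinc-binding protein of the large subunit named here after its values were seen, had ratios of 0.31 and 0.18 at 2 h on its bright probe sets, whereas 1416218_x_at had signals of 208, 1537 and 234, high on the 2 h array only. Rps29 marks the other end, with 3 probe sets between 0.28 and 0.32 at 4 h. Where probe sets disagreed this much, no single value stands for the gene.

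Dim probe sets of the family are described without counts of those higher or lower. A mean signal under 1000 and at least 200 on 1 array was met by 12 of them, in 10 genes, and several met it through the 0 h array alone, so that this choice itself makes them lower at later times. The probe set 1455195_at of Rps24, a small subunit protein, had signals of 382, 93.5 and 91.1, while its brightest one had 36553, 41882 and 47287. Probe set 1426958_at of Rps9 had 258, 10.8 and 16.1, against 23193, 28320 and 33140 on the brightest. Rps24, Rps9, Rpl12 and these dim probe sets were picked out after their values were seen, and the part of the transcript they match was not analysed here.

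**Figure D5:**
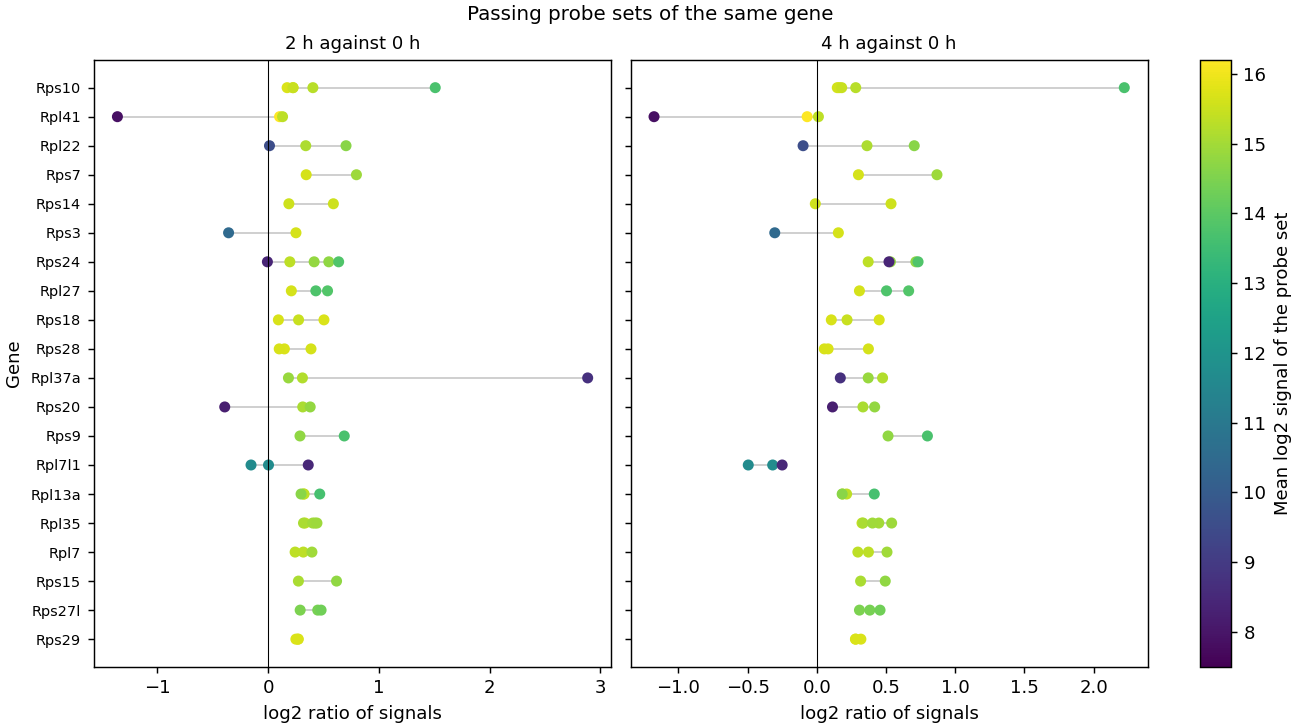
log2 ratios at 2 h (left) and 4 h (right) against 0 h for the passing probe sets of the 20 ribosomal protein genes with more than 1, coloured by mean log2 signal. Rps29 spans 0.28 to 0.32 at 4 h, while Rps10 reaches 2.22 on 1 probe set at 4 h, Rpl41 -1.18, and Rpl37a 2.89 at 2 h.

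Genes that share the pathway were read from lists by role. Of ribosomal proteins outside the name rule, Fau was the one with a single-symbol probe set, at 29189, 33236 and 33397 (0.19 and 0.19). Among 19 other genes with TOP mRNAs, most of them for translation factors, none was 1.5-fold higher at 2 h and 1 at 4 h, and 2 were 1.5-fold lower at each time. Of all genes 6.62% and 11.5% were higher, and 14.9% and 25.5% lower. The list's medians were 0.29 and 0.33, near those of the ribosomal protein genes. The transcription cofactor Btf3 (0.53 ± 0.23 and 0.60 ± 0.22, SD over 2 probe sets) and the elongation factor subunit Eef1b2 (0.55 and 0.54) were the highest at 4 h. The initiation factors Eif4a2 (-1.30 and -1.14) and Eif4b (-0.50 ± 0.09 and -1.05 ± 0.11, SD over 3 probe sets) were the lowest.

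Of 12 genes of TOP mRNA and mTORC1 control, none differed 1.5-fold at 2 h, and at 4 h 2 were higher and 3 lower, against 11.5% and 25.5% of all genes, with medians of -0.01 and -0.22. Larp1b was highest (0.52 ± 0.30 and 0.89 ± 0.89, SD over 2 probe sets), next to the translation repressor Eif4ebp1 (0.46 ± 0.47 and 0.62 ± 0.45, SD over 2 probe sets). The S6 kinase gene Rps6kb2 (0.06 and -1.30) and the mTOR partner Mlst8 (0.08 ± 1.00 and -0.75 ± 0.87, SD over 2 probe sets) were lowest. Larp1 itself had 3122, 2911 and 2213, lowest at 4 h, and was chosen after its values were seen.

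Genes for the escorts and assembly of ribosomal proteins had medians of -0.15 and -0.06 over 14 genes, and at 4 h 1 was 1.5-fold higher and 2 lower, against the same 11.5% and 25.5%. Rrs1 and Grwd1, which act in the loading of 5S components and of Rpl3, were 2-fold lower at 4 h: -0.36 ± 0.12 and -1.67 ± 0.07 (SD over 2 probe sets), and -0.26 ± 0.24 and -1.25 ± 0.36 (SD over 3 probe sets). Rsl24d1 (0.07 and 0.59) and Ltv1 (0.03 and 0.38) were highest. Of 8 genes for candidate transcription factors, 6 were at least 1.5-fold lower at 4 h, against 25.5% of all genes, and the medians were -0.28 and -0.85. Myc was lowest, with signals of 1613, 109 and 128, and the GABP subunit gene Gabpb1 had 578, 436 and 207 (-0.41 ± 0.03 and -1.48 ± 0.75, SD over 2 probe sets). Its partner Gabpa had 603, 498 and 763 (-0.28 ± 0.05 and 0.34 ± 0.02, SD over 2 probe sets), the highest of the list, and Sp1 followed with -0.29 and -0.49.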

How the data were processed

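Total RNA of 3 cultures was read on 1 array each, grouped by the time in the sample titles. The authors deposited 1 linear intensity per probe set, already scaled: the 2% trimmed mean is 150.0 on each array. The submitters' processing notes name GCOS 1.4, without the algorithm behind the signal, and the file headers name the array as Mouse430_2. The 34945 probe sets with 1 symbol in the platform annotation were named, with symbols updated by Entrez ID for 34741, and 945 with several and 9211 unlisted ones were left out. Arrays were rescaled to a trimmed mean of 500, with a floor of 100, log2 and a filter of 200. A gene took its passing probe set of highest mean.

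Genes were counted at 1.5-fold and 2-fold, beside the same share of all genes, and no p-value was computed. The members, the lists, and the rule for named genes were chosen with earlier results of these data known. That rule takes the extremes of each comparison, the 4 brightest genes, genes past 1.5-fold, the paralogs, stalk and MDM2 binders, genes whose probe sets differ by at least 1 in log2 ratio, and the extremes of each list. Genes outside this rule are named in the text as chosen after their values were seen. The counting step was tested on simulated data, with planted shifts larger than the ratio of any passing member and noise below the probe-set spread. That checks the code and does not show how reliable the 1.5-fold calls are. Alternatives were 3 other scalings, values as deposited, other floors and filters, the mean over probe sets, and leaving out suffixed probe sets. Python 3.11.15, numpy 2.4.6, pandas 2.3.3 and matplotlib 3.10.9 were used.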

Additional observations from a re-analysis of the deposited data

How the results depend on the processing

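No paired analysis was possible because each time point had 1 array, and for the same reason no array could be left out. Of 144 summary values under 12 alternatives, 119 kept their direction and stayed within a set limit of change. For medians and their differences from all genes, the limit was the probe-set SD of single genes (0.47 at 2 h, 0.36 at 4 h, 0.395 for 4 h against 2 h). This limit is wider than the family's median of 0.28, so medians of 0.03 (quantile normalization, 2 h) and 0.59 (equal medians, 4 h) counted as kept. For counts the limit was a 1.5-fold change. With equal medians, the genes at least 1.5-fold higher numbered 7 at 2 h, 23 at 4 h and 2 for 4 h against 2 h, where the median turned to 0.14. With quantile normalization there were 1 at 2 h and 3 at 4 h, the median for 4 h against 2 h was 0.0022, and the family's median minus that of all genes turned to -0.0018 at 2 h and -0.031 at 4 h. With spike-in scaling 0 genes were higher at 2 h and 1 at 4 h, 2 were lower at 4 h, whose median turned to -0.040. Without a filter, 2 genes were lower at 2 h, 1 at 4 h and 1 for 4 h against 2 h, where the difference from all genes turned to -0.0072. With a filter of 5000, 0 genes were lower at 2 h and 3 higher at 4 h, and the difference from all genes turned to -0.088 at 4 h and -0.10 for 4 h against 2 h. With the mean over probe sets 1 gene was lower for 4 h against 2 h. With suffixed probe sets left out, 17 members remained, with 2 higher at 2 h, 3 higher at 4 h and 0.043 as the median for 4 h against 2 h. The smaller counts under stricter filters go with fewer genes, and the cause of the other shifts was not tested. Values as deposited, floors of 50 and 200, an offset of 50 and a filter stricter by 2 times changed nothing past these limits. Most of this was fixed in advance. The deposited arrays already shared a trimmed mean, and every passing member was above 200 on each array, so rescaling and floors could not alter its ratios. The stricter filter kept the same 45 members.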
